A study of Homo sapiens with 3 samples.

Results

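The genes examined were 52 that encode enzymes and readers of protein acetylation and the corepressor proteins that carry deacetylases to chromatin, in T24 cells, a human bladder carcinoma line. They were taken by symbol: the 10 zinc-dependent histone deacetylases (HDACs) other than HDAC6, 7 sirtuins, 10 acetyltransferases, 3 nuclear receptor coactivators (NCOA), 2 bromodomain readers of the BET family, and 20 subunits of the SIN3, NuRD, CoREST and NCOR complexes. All 52 were found among the 58381 genes of the count table, and all 52 had a mean of at least 10 counts over the libraries. In 50 of them the mean was at least 100; the exceptions were HDAC10 and SIRT4.

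RNA was sequenced in 3 conditions with 1 library each. Ctrl was untreated control cells with the treatment label Empty, and RT was control cells after irradiation. RT + shHDAC6 was irradiated cells with lentiviral expression of a short hairpin RNA against HDAC6. The labels give a dose of 10 Gy for irradiation and pLKO.1 as the control vector, with puromycin selection of transduced cells. The irradiated comparator is called parental in the text of the paper's results, although its methods and the labels name a control vector. The label Empty does not say of what, so it cannot be said whether the Ctrl and RT libraries carried the vector. No unirradiated library with the hairpin was analysed here, so the hairpin was seen only on an irradiated background, and differences between conditions cannot be told apart from differences between cultures or library preparations.

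Deacetylases remove acetyl groups from histone tails and other proteins, acetyltransferases such as p300 and CBP add them, and bromodomain proteins bind the acetylated lysines. The class I enzymes HDAC1 and HDAC2 work as the catalytic core of the SIN3, NuRD and CoREST complexes, while HDAC3 is held and activated by the NCOR corepressors. Class IIa enzymes have little catalytic activity of their own and act mainly as signal-regulated partners of transcription factors such as MEF2, and sirtuins need NAD+ as a cosubstrate.

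Promoter sequence was read for the called genes with the largest rise or fall in RT against Ctrl (KAT2A and TBL1XR1) and in RT + shHDAC6 against RT (HDAC9 and HDAC4), among genes with a window in the table and a mean of at least 100 counts, so that the starts named by RefSeq can be seen beside the counts. SIRT4 and HDAC5 fell further than TBL1XR1 but were passed over, SIRT4 for its low counts and HDAC5 for want of a window. Each window runs from 250 bases before to 50 bases after the start that the RefSeq table gives for the gene on GRCh38.p14. Capitals mark CG dinucleotides, the sites of DNA methylation in mammals.
KAT2A, chr17:42121318-42121617, minus strand: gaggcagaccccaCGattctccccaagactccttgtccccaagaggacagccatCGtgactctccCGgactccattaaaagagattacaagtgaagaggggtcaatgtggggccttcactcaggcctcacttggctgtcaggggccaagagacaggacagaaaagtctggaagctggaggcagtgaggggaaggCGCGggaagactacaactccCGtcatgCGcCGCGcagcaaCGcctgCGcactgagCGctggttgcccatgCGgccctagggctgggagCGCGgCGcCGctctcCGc
TBL1XR1, chr3:177197433-177197732, minus strand: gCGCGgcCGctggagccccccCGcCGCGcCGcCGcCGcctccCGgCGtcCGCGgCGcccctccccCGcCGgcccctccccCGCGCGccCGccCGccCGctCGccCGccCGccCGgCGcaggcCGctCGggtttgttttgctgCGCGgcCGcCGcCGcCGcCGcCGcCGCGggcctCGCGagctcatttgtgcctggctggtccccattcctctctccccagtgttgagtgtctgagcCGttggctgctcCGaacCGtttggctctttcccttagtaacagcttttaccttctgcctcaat
HDAC9, chr7:18495499-18495798, plus strand: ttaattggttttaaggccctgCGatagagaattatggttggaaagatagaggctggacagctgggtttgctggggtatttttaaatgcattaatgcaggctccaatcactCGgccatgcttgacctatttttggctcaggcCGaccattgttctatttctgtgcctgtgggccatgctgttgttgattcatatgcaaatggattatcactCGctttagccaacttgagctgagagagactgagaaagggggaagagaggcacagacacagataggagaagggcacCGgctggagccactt
HDAC4, chr2:239274732-239275031, minus strand: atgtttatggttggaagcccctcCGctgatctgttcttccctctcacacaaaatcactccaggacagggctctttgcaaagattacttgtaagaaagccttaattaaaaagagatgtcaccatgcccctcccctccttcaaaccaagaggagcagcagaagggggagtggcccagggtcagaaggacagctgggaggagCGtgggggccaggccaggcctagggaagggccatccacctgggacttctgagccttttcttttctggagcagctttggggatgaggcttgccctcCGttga

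The TBL1XR1 window held 44 CG dinucleotides and the KAT2A window 18, whereas the HDAC9 window held 5 and the HDAC4 window 3. Of the 52 genes, 47 had a window in the table, with a median of 31 CG dinucleotides and a GC content of 70.3%. Over all 35116 windows, which were not limited to genes counted in T24 cells, the medians were 14 and 58.7%. The table names 1 start per gene, and for HDAC9, HDAC4 and TBL1XR1 that start lies inside the gene span annotated by GENCODE, downstream of its 5′ end. The start used in T24 cells was not measured.

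In total, 41811165 (Ctrl), 35959265 (RT) and 35424086 (RT + shHDAC6) counts were assigned to genes, of which the 52 genes took 0.626%, 0.514% and 0.529%. Mitochondrially encoded RNA took 3.75%, 6.09% and 5.51%. Of 11 epithelial and urothelial markers, the uroplakins UPK1B, UPK2 and UPK3A had at most 3 counts in each library, and the summed level of the list was 361, 455 and 358 CPM (counts relative to the scaled library size). Single markers moved apart within that sum. KRT18 stood at 162, 249 and 258 CPM, KRT7 at 77.9, 115 and 17, and GATA3 at 51.2, 42.4 and 20.2. KRT5, KRT8, KRT19 and EPCAM were lowest in RT. The 4 mesenchymal genes, led by vimentin, summed to 3093, 2683 and 3087 CPM. Vimentin, ZEB1 and FN1 were lowest in RT, whereas CDH2 stood at 150, 257 and 125 CPM. Counts were scaled between libraries by the trimmed mean of M values (TMM). Scaling by library totals instead would move every log2 ratio by -0.22 in RT against Ctrl, 0.084 in RT + shHDAC6 against RT and -0.13 in RT + shHDAC6 against Ctrl. Each log2 ratio is given with a 95% counting interval, which covers counting error only, since the reads carry no molecular identifiers, so that they need not be separate molecules, and no replicate was available. A gene was called higher or lower when its scaled counts differed by at least 1.5-fold (0.58 on the log2 scale) and the interval excluded 0. Counts of single genes are printed as deposited, before scaling, so they should be read against the smaller totals of RT and RT + shHDAC6. Gene positions are those of GENCODE release 44 on GRCh38.

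HDAC6, the target of the hairpin and not among the 52, had 3098, 2383 and 2170 counts in the Ctrl, RT and RT + shHDAC6 libraries. After scaling, 87.2% of the RT level remained in RT + shHDAC6 (log2 ratio -0.20, interval -0.28 to -0.11), which did not pass the 1.5-fold rule. The counts thus hold a small decrease whose counting interval excludes 0. Alone they do not show the knockdown that the label of RT + shHDAC6 names. The paper reports reduced HDAC6 mRNA by qPCR and reduced protein by Western blot in shHDAC6 T24 cells. Whether those assays used the culture sequenced here is not stated. Each direction given for RT + shHDAC6 is that of the library so labelled. RT and Ctrl differed by a log2 ratio of 0.057 (interval -0.021 to 0.13).

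RT against Ctrl addresses what differs after irradiation without the hairpin. Among the 52 genes, 3 were called higher (KAT2A, MBD3 and HDAC9) and 5 lower (SIRT4, HDAC5, TBL1XR1, NCOA3 and HDAC11). The rises spanned log2 ratios of 0.64 to 1.0 and the falls -0.94 to -0.61. Over all 18761 genes tested, 13.0% were called higher and 12.7% lower, against 5.77% and 9.62% of the 52. The median log2 ratio of the 52 was -0.028, as it was over all genes tested. In 32 of the 52 (61.5%) the log2 ratio was within 0.32 of 0, which held for 49.4% of all genes with a mean of at least 100 counts. With that mean as the limit, 16.3% of all genes were called higher and 8.16% lower, against 6% and 8% of the 50 that reach it. In bulk RNA, a change in the RNA made per cell cannot be told apart from a change in the mix of cells.

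**Figure D1:**
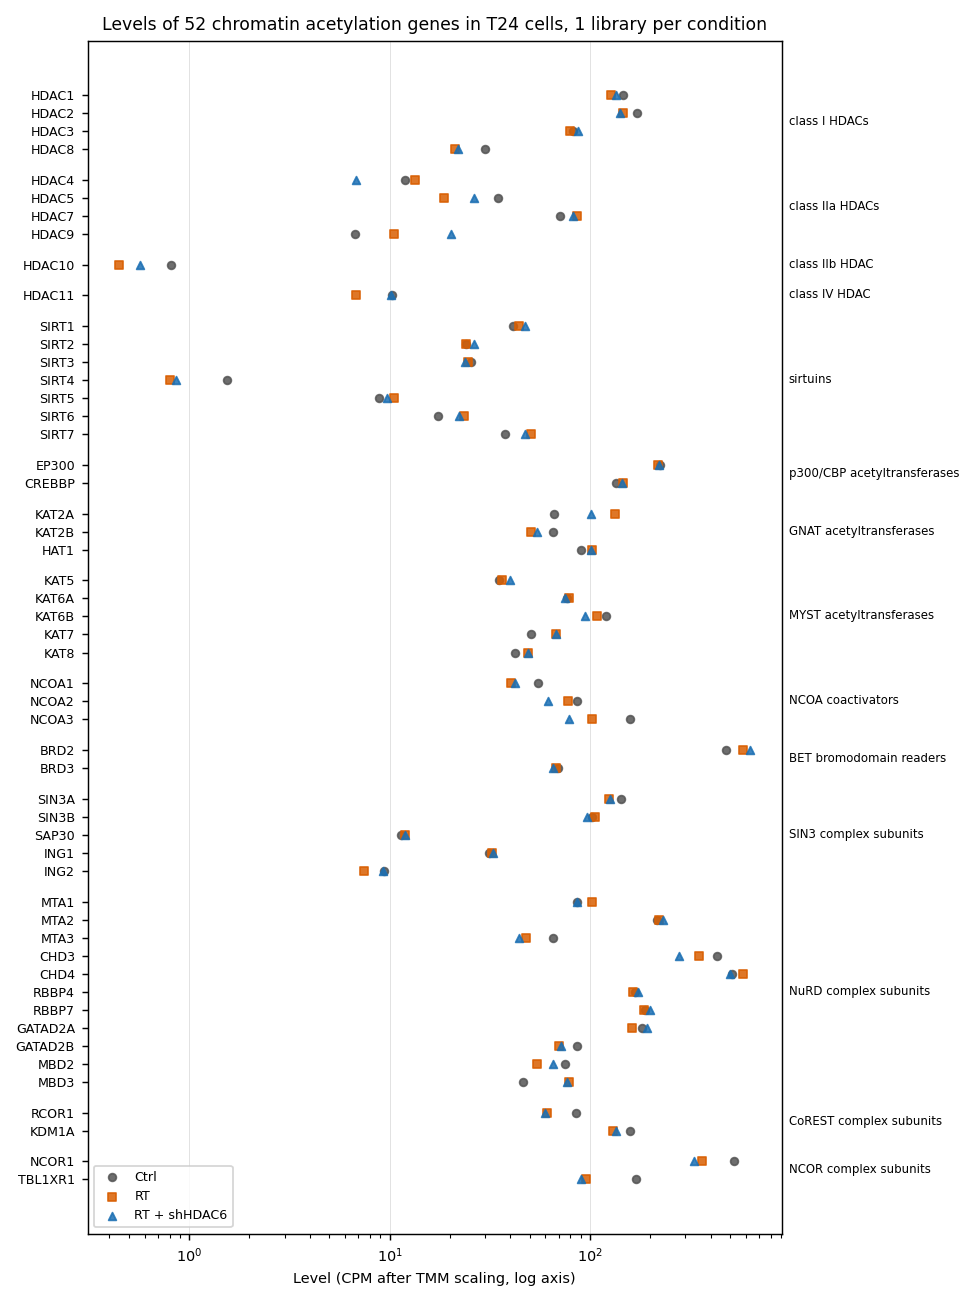
Level of each of the 52 genes in the 3 libraries, in CPM after TMM scaling on a log axis, with 1 point per library (circle Ctrl, square RT, triangle RT + shHDAC6) and genes grouped by role. The 3 points of most genes lie close together. Those of KAT2A, HDAC9, HDAC5, HDAC4, TBL1XR1 and NCOA3 are among the most spread, as are those of SIRT4 and HDAC10, which have few counts.

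KAT2A (also called GCN5; chr17:42113111-42121367, minus strand), the acetyltransferase of the SAGA and ATAC complexes, had 3004, 4458 and 3538 counts in the Ctrl, RT and RT + shHDAC6 libraries. Its level was highest in RT, and was between the other libraries in RT + shHDAC6. The log2 ratio was 1.0 (interval 0.94 to 1.07) in RT against Ctrl and -0.40 (interval -0.46 to -0.33) in RT + shHDAC6 against RT. KAT2B (PCAF; chr3:20040446-20154404, plus strand), the paralog that can take its place in these complexes, had 2962, 1709 and 1910 counts. Its log2 ratio in RT against Ctrl was -0.36 (interval -0.44 to -0.27), so the paralogs lay on opposite sides of Ctrl. HAT1, which acetylates newly made histone H4, differed by 0.19 in RT against Ctrl.

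No other acetyltransferase was called in RT against Ctrl. EP300 (p300) had 10156, 7381 and 7721 counts and CREBBP (CBP) 6125, 4912 and 5053, and their log2 ratios in RT against Ctrl were -0.025 and 0.12. The summed counts of these large coactivators differed by 0.03 in RT against Ctrl and by -0.0067 in RT + shHDAC6 against RT. The 5 MYST enzymes ranged from -0.17 for KAT6B to 0.41 for KAT7 (HBO1, which acetylates histone H3 and H4 at replication origins). KAT5 (TIP60), which acetylates ATM after DNA breaks, had 1602, 1229 and 1394 counts, and in RT against Ctrl differed by 0.053 (interval -0.056 to 0.16) on the log2 scale. None of the 5 was called in either comparison. As exons of a gene on the opposite strand cover 38.6% of its exonic bases, and the strand setting of the counting was not stated, its counts could hold reads of that neighbour.

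Of the 4 class IIa deacetylases, 1 was called higher and 1 lower in each comparison (25% each way). Over all genes tested, 13.0% were higher and 12.7% lower in RT against Ctrl. The shares were 4.71% and 6.35% in RT + shHDAC6 against RT, and 11.8% and 13.5% in RT + shHDAC6 against Ctrl. With 4 genes, such shares do not describe the class. HDAC9 (chr7:18086949-19002416, plus strand) had 304, 351 and 707 counts in the Ctrl, RT and RT + shHDAC6 libraries. Scaled to 6.7, 10.5 and 20.2 CPM, it was lowest in Ctrl and highest in RT + shHDAC6. The log2 ratio was 0.64 (interval 0.42 to 0.87) in RT against Ctrl, 0.95 (interval 0.76 to 1.14) in RT + shHDAC6 against RT, and 1.59 (interval 1.39 to 1.79) in RT + shHDAC6 against Ctrl. Scaled by library totals, the first of these was 0.42, under the threshold.

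HDAC4 (chr2:239048168-239401654, minus strand) had 543, 448 and 239 counts in the Ctrl, RT and RT + shHDAC6 libraries. Ctrl and RT lay near each other (log2 ratio 0.16, interval -0.026 to 0.34), and RT + shHDAC6 lay below both. Its log2 ratio in RT + shHDAC6 against RT was -0.97 (interval -1.20 to -0.74).

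HDAC5 (chr17:44076746-44123702, minus strand) had 1576, 624 and 926 counts in the Ctrl, RT and RT + shHDAC6 libraries, lowest in RT. The log2 ratio was -0.90 (interval -1.04 to -0.77) in RT against Ctrl and 0.51 (interval 0.36 to 0.66) in RT + shHDAC6 against RT, just under the threshold. HDAC7, the most counted of the class, had 3232, 2894 and 2876 counts and was not called in any comparison. As a share of the counts of the 4 genes, HDAC9 went from 5.38% in Ctrl to 8.13% in RT and 14.9% in RT + shHDAC6. HDAC4 took 9.6%, 10.4% and 5.03%. The summed counts of the 4 differed by log2 ratios of 0.046 and 0.075 in RT against Ctrl and in RT + shHDAC6 against RT.

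HDAC11 (chr3:13479724-13506424, plus strand), the sole class IV enzyme and a remover of long fatty acyl groups, followed the same order as HDAC5. It had 468, 227 and 356 counts in the Ctrl, RT and RT + shHDAC6 libraries. The log2 ratio was -0.61 (interval -0.84 to -0.38) in RT against Ctrl and 0.59 (interval 0.34 to 0.83) in RT + shHDAC6 against RT, and Ctrl and RT + shHDAC6 differed by -0.022. Both calls sit at the threshold: with DESeq2 size factors the ratios were -0.55 and 0.58, and neither passed. The comparisons share the RT library, so a low count in RT alone gives both. Markers of blood and endothelial cells, lineages that a T24 culture should lack, had the same order, with 8 genes summing to 27.6, 17.9 and 22.5 CPM in the same libraries, none of them at 0 in any library. Whether the counts of HDAC5 and HDAC11 moved with this low-level signal was not tested. Exons of G6PC3 on the opposite strand cover 24% of the exonic bases of HDAC5.

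The class I enzymes had 4 log2 ratios below 0 in RT against Ctrl under TMM, with HDAC3 at -0.048 turning above 0 with DESeq2 size factors, and none was called. HDAC1 had 6666, 4309 and 4731 counts and HDAC2 7755, 4884 and 4920. Their log2 ratios were -0.19 and -0.23 in RT against Ctrl, and 0.073 and -0.052 in RT + shHDAC6 against RT. HDAC8, which works outside the large corepressor complexes and deacetylates cohesin, had 1357, 715 and 769 counts and differed by -0.49 (interval -0.62 to -0.36) in RT against Ctrl. HDAC10, the other class IIb enzyme, had 37, 15 and 20 counts, too few to place it. Its interval of -1.84 to 0.033 in RT against Ctrl includes 0, and exons of MAPK12 on the same strand cover 55.8% of its exonic bases.

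Among the sirtuins, SIRT4, a mitochondrial member, was called lower in RT with 70, 27 and 30 counts across Ctrl, RT and RT + shHDAC6. The log2 ratio was -0.94, and its interval of -1.64 to -0.28 was wide. SIRT6 and SIRT7, nuclear sirtuins that act on chromatin at breaks and at ribosomal DNA, each had a log2 ratio of 0.42 in RT against Ctrl, under the threshold. SIRT1, SIRT2 and SIRT3 lay between -0.052 and 0.099, and SIRT5 was at 0.25. In RT + shHDAC6 against RT the 7 sirtuins lay between -0.11 and 0.14, and none was called. The summed sirtuin counts differed by 0.19 in RT against Ctrl under TMM, a sign that turns under library totals with their shift of -0.22.

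Among the corepressor genes of the 52, those with the most negative log2 ratios in RT against Ctrl belonged to the NCOR complex, which links unliganded nuclear receptors to HDAC3. TBL1XR1 (chr3:177019340-177228000, minus strand), which exchanges corepressors for coactivators, had 7702, 3216 and 3177 counts in the Ctrl, RT and RT + shHDAC6 libraries. Both irradiated libraries lay below Ctrl and near each other. Its log2 ratio was -0.82 (interval -0.88 to -0.77) in RT against Ctrl and -0.08 (interval -0.15 to -0.0085) in RT + shHDAC6 against RT. NCOR1 (chr17:16029065-16218185, minus strand), the scaffold of the complex, had 23793, 12163 and 11559 counts. It showed the same order, with a log2 ratio of -0.53 in RT against Ctrl, just under the threshold, and of -0.67 in RT + shHDAC6 against Ctrl, where it was called lower. RCOR1 and KDM1A, the scaffold and the histone demethylase of CoREST, had log2 ratios of -0.49 and -0.28 in RT against Ctrl and stayed within 0.042 of 0 in RT + shHDAC6 against RT.

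The NCOA coactivators, which recruit p300 to nuclear receptors, had lower summed counts in both irradiated libraries than in Ctrl. NCOA3 (chr20:47501887-47656877, plus strand), amplified in some breast cancers, had 7181, 3466 and 2764 counts in the Ctrl, RT and RT + shHDAC6 libraries. Its log2 ratio was -0.62 (interval -0.67 to -0.56) in RT against Ctrl, -0.39 (interval -0.46 to -0.32) in RT + shHDAC6 against RT and -1.0 (interval -1.07 to -0.94) in RT + shHDAC6 against Ctrl. With DESeq2 size factors the first was -0.56 and not called. NCOA2 had 3910, 2601 and 2158 counts, with log2 ratios of -0.15 and -0.33. NCOA1 differed from Ctrl by -0.46 in RT and from RT by 0.064 in RT + shHDAC6. The summed counts of the 3 genes gave log2 ratios of -0.44 and -0.28, and the sign of neither changes under the scalings tried.

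In NuRD, which joins deacetylation to chromatin remodelling, 1 of 11 subunits was called in RT against Ctrl. The shares were 9.09% higher and 0% lower, against 13.0% and 12.7% of all genes tested. MBD3 (chr19:1573596-1592865, minus strand) had 2104, 2627 and 2685 counts in the Ctrl, RT and RT + shHDAC6 libraries. Its log2 ratio was 0.76 (interval 0.67 to 0.84) in RT against Ctrl and -0.031 in RT + shHDAC6 against RT, so both irradiated libraries lay above Ctrl. Scaled by library totals the first ratio was 0.54, under the threshold. MBD2, the methyl-CpG-binding subunit that excludes MBD3 from the same complex, had 3391, 1824 and 2302 counts and log2 ratios of -0.46 and 0.27. The helicase CHD3 had 19453, 11813 and 9787 counts, and was called lower in RT + shHDAC6 against Ctrl at -0.62. CHD4, the other helicase, had 23253, 19593 and 17423 counts and log2 ratios of 0.19 and -0.23, although a second annotated gene on the same strand covers 46.9% of its exonic bases. The remaining NuRD subunits, MTA1, MTA2, MTA3, RBBP4, RBBP7, GATAD2A and GATAD2B, lay between -0.44 (MTA3) and 0.24 (MTA1) in RT against Ctrl. The summed NuRD counts differed by -0.02.

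The SIN3 scaffolds and their partners SAP30, ING1 and ING2 were not called in any comparison. SIN3A had 6502, 4187 and 4395 counts and a log2 ratio of -0.20 in RT against Ctrl, and SIN3B was at 0.054. ING2, a reader of trimethylated histone H3, had 426, 250 and 326 counts, with log2 ratios of -0.33 and 0.32. The order of its libraries was that of HDAC5 and HDAC11. BRD2, a BET reader of acetylated histones, had 21766, 19520 and 22129 counts and differed from Ctrl by 0.28 in RT and by 0.40 in RT + shHDAC6, while BRD3 lay within 0.09 of 0 in each comparison.

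RT + shHDAC6 against RT addresses what differs between irradiated libraries labelled with and without the hairpin. Of the 52 genes, 2 were called higher, HDAC9 and HDAC11, and 1 lower, HDAC4. Over all genes tested, 4.71% were called higher and 6.35% lower, against 3.85% and 1.92% of the 52. All 3 called genes, whose values stand above, were among the 10 zinc-dependent deacetylases other than HDAC6. Of these 10, 20% were called higher and 10% lower, and of the 7 sirtuins 0 were called. HDAC11 was not called with DESeq2 size factors, and with 10 genes such shares do not describe the class. The median log2 ratio of the 52 was 0.0054, against -0.0066 over all genes tested. In 43 of the 52 (82.7%) the log2 ratio was within 0.32 of 0, against 76.8% of all genes with a mean of at least 100 counts. Of those genes, 2.70% were called higher and 5.18% lower, against 4% and 2% of the 50.

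In RT + shHDAC6 against Ctrl, 3 genes were called higher (HDAC9, MBD3 and KAT2A) and 6 lower (NCOA3, TBL1XR1, SIRT4, HDAC4, NCOR1 and CHD3). The background was 11.8% higher and 13.5% lower, against 5.77% and 11.5% of the 52. Among genes with a mean of at least 100 counts it was 13.7% and 10.2%, against 6% and 10% of the 50. KAT2A passed the threshold at 0.61 under TMM but not under library totals (0.48) or upper quartile factors (0.58), and CHD3 not with DESeq2 size factors (-0.57). This comparison shares its libraries with the other two, so it adds no independent measurement.

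Ratios of related genes within a library do not depend on the scaling between libraries. They were taken for 17 pairs, of which 15 were paralogs and 2 were partners in a complex (NCOR1 with TBL1XR1, and RCOR1 with KDM1A). In RT against Ctrl, 3 pairs moved by at least 1.5-fold with an interval excluding 0. Across Ctrl, RT and RT + shHDAC6, KAT2A was 50.4%, 72.3% and 64.9% of the KAT2A and KAT2B counts, a change of the ratio in RT by 1.36 on the log2 scale (2.57-fold). MBD2 was 61.7%, 41% and 46.2% of the MBD2 and MBD3 counts in the same order of libraries, a change of -1.21 in RT (interval -1.33 to -1.10). Per kilobase of merged exons, MBD2 stood at 13.2, 9.56 and 11.6 CPM and MBD3 at 5.87, 9.9 and 9.7 CPM.

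Of the HDAC4 and HDAC5 counts, HDAC4 was 25.6% (Ctrl), 41.8% (RT) and 20.5% (RT + shHDAC6), highest in RT. The ratio changed by 1.06 in RT against Ctrl (interval 0.83 to 1.29) and by -1.48 in RT + shHDAC6 against RT (interval -1.75 to -1.20). It was the sole pair that moved in the second of these. Against Ctrl, 3 pairs moved in RT + shHDAC6: KAT2A with KAT2B, MBD2 with MBD3, and NCOA1 with NCOA3, where NCOA1 was 25.9%, 28.1% and 34.9% of the counts across the 3 libraries.

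The other pairs stayed under the 1.5-fold rule in RT against Ctrl and in RT + shHDAC6 against RT, although 14 of the 17 intervals excluded 0 in the first of these and 12 in the second. CHD3 was 45.6%, 37.6% and 36% of the counts with CHD4, a change of -0.47 on the log2 scale in RT against Ctrl. The ratio of BRD2 to BRD3 changed by 0.31 and that of ING1 to ING2 by 0.39 in the same comparison. HDAC1 was 46.2%, 46.9% and 49% of the HDAC1 and HDAC2 counts. RBBP4, a histone chaperone of SIN3 and NuRD, was 47%, 47.1% and 46.5% of the counts with RBBP7. SIRT6 was 31.7%, 31.6% and 32% of the counts with SIRT7, and neither gene was called in any comparison. NCOR1 was 75.5% of the counts with TBL1XR1 in Ctrl and 79.1% in RT.

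Levels were compared between genes per kilobase of merged exon length. In Ctrl, BRD2 (53.4 CPM per kilobase), MTA2 (50.6), CHD4 (40.3), CHD3 (38.9) and HDAC1 (37.1) were the highest, and HDAC10 (0.165) and HDAC9 (0.388) the lowest. HDAC9 therefore rose from a low level, and in RT + shHDAC6 still took 8.72% of the class IIa level per kilobase, against 61.8% for HDAC7. The median over the 52 genes was 8.91, 9.29 and 9.13 CPM per kilobase across Ctrl, RT and RT + shHDAC6. These levels depend on the length used, since merged exons include those of rare transcripts.

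After the values had been seen, the log2 ratios were set beside the length of DNA from the first to the last exon of each gene. In RT against Ctrl, the 18 genes spanning under 30 kb had a median log2 ratio of 0.047, the 18 of 30 to 100 kb -0.015, and the 16 of at least 100 kb -0.33. In the longest group 12 of 16 lay below 0, with TBL1XR1 at -0.82 and NCOA3 at -0.62, while HDAC9, the longest of all at 915 kb, was at 0.64. Over protein-coding genes with a mean of at least 10 counts the medians in the same bins were 0.093, -0.028 and -0.17. Of the 2929 such genes of at least 100 kb, 1855 lay below 0. With a mean of at least 100 counts the medians were 0.18, 0.048 and -0.078. Spearman's rho between span and log2 ratio was -0.28 across the 52 genes and -0.17 across the 13900 protein-coding genes with a mean of at least 10 counts. It is given as a description only, as the genes share their libraries. In RT + shHDAC6 against RT the 3 medians were 0.042, 0.0054 and -0.05, and rho was -0.27 across the 52 genes and -0.022 across the protein-coding genes. Pearson's r with the logarithm of span was -0.11 across the 52. With merged exon length in place of span, rho was -0.36 and -0.039, so span does not stand out there. For span in RT + shHDAC6 against Ctrl, rho was -0.48 and -0.19.

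Further subunits of the same complexes were taken from lists of genes that are not among the 52. Of 24 other corepressor subunits, 0 were called higher and 6 lower in RT against Ctrl, or 0% and 25% against 13.0% and 12.7% of all genes tested, with a median log2 ratio of -0.19. In RT + shHDAC6 against RT, 2 were higher (8.33%, against 4.71% of all genes) and 0 lower (against 6.35%). PHF21A, a CoREST subunit that binds unmethylated histone H3, had 7103, 2859 and 2826 counts and a log2 ratio of -0.88 in RT against Ctrl. RCOR2, a paralog of RCOR1, had 74, 16 and 32 counts and differed by -1.77 in RT against Ctrl with an interval of -2.65 to -0.98, so its call rests on few counts. The NuRD helicase paralog CHD5 had 136, 61 and 160 counts, and differed by 1.33 (interval 0.90 to 1.78) on the log2 scale in RT + shHDAC6 against RT.

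Of 40 other acetyltransferase complex subunits, 5 were called higher (12.5%, against 13.0% of all genes tested) and 1 lower (2.5%, against 12.7%) in RT against Ctrl, with a median of 0.072. SGF29, the SAGA subunit that reads methylated histone H3 beside KAT2A, had 266, 457 and 479 counts. Its log2 ratio was 1.22 (interval 0.99 to 1.44) in RT against Ctrl. The single gene called lower was TADA3, a subunit of the KAT2A module of SAGA, named here after its values were seen, with 3824, 1772 and 2256 counts and a log2 ratio of -0.67. ING5, a subunit of KAT6 and KAT7 complexes, had 1276, 1715 and 2133 counts and a log2 ratio of 0.86, and the SAGA subunit TAF6L was at 0.73. In RT + shHDAC6 against RT, 1 was called higher (2.5%, against 4.71%) and 0 lower (against 6.35%). The higher one was MSL2, a partner of KAT8, at 0.65.

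Motifs were counted in the 300 base windows of the 47 genes with a RefSeq start, on both strands. GGGCGG, the core of the GC box bound by SP1, was found in 33 of them (70.2%), against 45% of all 35116 windows. CCAAT was in 14 (29.8%, against 34.6%), TATAAA in 1 (2.13%, against 11.5%) and CACGTG in 3 (6.38%, against 7.26%). The TBL1XR1 window held 4 GC boxes and those of KAT2A, HDAC9 and HDAC4 none, while the HDAC9 window held 2 CCAAT sites. The 35116 windows were not limited to genes counted in T24 cells, and their median GC content was 58.7%, against 70.3% for the 47. Shares over windows of like GC content were not taken, so the higher share of GGGCGG cannot be read as particular to these genes. A match describes the letters of the window and no binding was measured.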

How the data were processed

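RNA from 3 cultures of T24 cells was sequenced, 1 library per condition, grouped by the sample labels. The authors used cutadapt for trimming, STAR for alignment to GRCh38 (2.6.1a per the labels; the methods name another version and another library kit) and featureCounts with the genes of GENCODE release 28. The deposited values are whole-number read counts without normalisation; the strand setting and the handling of multi-mapping reads are not stated in the sources used here, so overlapping genes and paralogs could share counts. Names, spans and exon lengths came from GENCODE release 44 (57799 of 58381 identifiers matched).

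Scaling factors were computed with edgeR 4.0.16 in R 4.3.3 (TMM, all 3 libraries). A count of 0 was set to 0.5, and genes with a mean of at least 10 counts were tested by the 1.5-fold rule with a 95% Clopper-Pearson interval (scipy 1.17.1). Ratios of pairs used the conditional exact interval. With 1 library per condition no p-value is given. The probability of NOISeq, which the study used, rests on simulated technical noise without replicates and was not used. The calls were run on simulated counts that held counting error only, which cannot show how they fare with variation between cultures or libraries. Named genes are the 52 genes, HDAC6, and of the other lists at most the 3 largest rises and 3 largest falls among called genes per comparison. The genes, lists and pairs were chosen with earlier results of these data known. Alternatives covered scaling (DESeq2 1.42.0 size factors among them), filter, zeros, fold and length. Protein sequences were not used here.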

Additional observations from a re-analysis of the deposited data

How the results depend on the processing

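No gene called among the 52 changed direction under another scaling, but none could. A call needs a log2 ratio of at least 0.58 in size, and the largest shift against TMM was -0.22. Setting a count of 0 to 1 could not act either, as no gene of the 52 had a count of 0. Under library totals, 11 of the 52 changed sign in RT against Ctrl and 12 in RT + shHDAC6 against RT. In RT + shHDAC6 against Ctrl, 9 did. With library totals, calls in RT against Ctrl became 1 higher and 12 lower, against 3 and 5 with TMM, and the medians became -0.25, 0.089 and -0.16 in RT against Ctrl, RT + shHDAC6 against RT and RT + shHDAC6 against Ctrl. The cause lies in the shift that totals give all genes. With DESeq2 size factors, calls lower in RT against Ctrl became 3, and calls higher in RT + shHDAC6 against RT became 1, HDAC9. At 2-fold, calls were 1 higher and 0 lower, 0 and 0, and 1 and 1 in the 3 comparisons, and 0 pairs moved in RT + shHDAC6 against Ctrl. At the lower limit of 0.32 on the log2 scale, 6 were higher and 13 lower in RT against Ctrl, 5 lower in RT + shHDAC6 against RT, and 7 higher and 13 lower in RT + shHDAC6 against Ctrl, and 5, 3 and 7 pairs moved. Per kilobase of the longest transcript, the median level was 13.6, 13 and 12.6 CPM. Filters on low counts, upper quartile scaling and dropping the interval kept all counts within 1.5 times.

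No paired analysis was possible because each condition has 1 library. Leaving out a replicate in turn was not run, with 1 per condition. Depth limits HDAC10 and SIRT4, whose counts were at most 70 in any library.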

Other observations

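Among 23 other bromodomain proteins tested, which read acetylated lysines in diverse complexes, 1 was called higher and 1 lower in RT against Ctrl (4.35% each way, against 13.0% and 12.7% of all genes tested), with a median log2 ratio of -0.04. The lower one was BAZ2B, with 2305, 978 and 1024 counts across Ctrl, RT and RT + shHDAC6 and differed from Ctrl by -0.80 in RT (interval -0.91 to -0.69). In RT + shHDAC6 against RT, 0 were higher and 1 lower (4.35%, against 6.35% of all genes, and 4.71% higher). That gene was ZMYND8, which brings NuRD to sites of DNA damage, with 13636, 7546 and 4706 counts across Ctrl, RT and RT + shHDAC6. In RT + shHDAC6 it differed from RT by -0.74 (interval -0.80 to -0.69) and from Ctrl by -1.16 (interval -1.21 to -1.11) on the log2 scale, so its libraries had the same order as those of NCOA3 and CHD3.

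The subunit lists were also counted in RT + shHDAC6 against Ctrl. Over all genes tested, 11.8% were called higher and 13.5% lower. Of 24 other corepressor subunits 1 was higher (4.17%) and 3 lower (12.5%), with PHF21A at -0.96. Of 40 other acetyltransferase complex subunits 5 were higher (12.5%) and 1 lower (2.5%), with SGF29 at 1.22, ING5 at 1.11 and BRPF1 at 0.72.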
